A study of Mus musculus with 9 samples.

Results

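The genes of the respiratory chain and of ATP synthase were described in RNA-seq data from mouse ovaries. Members were the protein-coding genes of the GENCODE M21 annotation (mouse build GRCm38) whose symbols begin with the family names Nduf, Sdh, Uqcr, Cox4 to Cox8 and Atp5, or with mt- for the mitochondrial genome. The rule found 107 genes among the 55536 in the table, of which 94 lie in the nuclear genome and 13 in the mitochondrial genome. Complex I gave 36 nuclear subunits, 8 nuclear assembly factors and 7 mitochondrial subunits, complex II 4 nuclear subunits, complex III 8 nuclear subunits and 1 mitochondrial subunit, complex IV 18 nuclear and 3 mitochondrial subunits, and complex V 17 nuclear and 2 mitochondrial subunits. The paralogue Ndufa4l2 and the associated genes Cox7a2l and Atp5s completed the set. The libraries came from 3 granulosa cell tumours and 3 hyperplastic ovaries, both heterozygous for the C134W change of the transcription factor Foxl2 (FOXL2 WT/C134W), and from 3 wild-type ovaries (FOXL2 WT/WT). The series set gene dysregulation in mouse adult-type granulosa cell tumours against normal ovaries. Strain and age are not stated in the labels, nor whether each library came from a separate animal, so p-values measure the spread between these libraries, which may be technical. The titles of hyperplasia library 3 and tumour library 3 share a stem.

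The respiratory chain passes electrons from NADH (complex I) and succinate (complex II) through complex III to complex IV, where oxygen is reduced. The protons pumped on the way drive ATP synthase, complex V. Complex II is built from nuclear genes only, while the other complexes combine nuclear subunits with subunits encoded in mitochondrial DNA. Mitochondrial mRNAs are cut from long transcripts that cover nearly the whole circular genome, so their levels depend on processing and stability as well as on transcription. In the ovary, luteal cells are rich in mitochondria because the first step of steroid hormone synthesis takes place there. In whole tissue, fewer cells of a type and less RNA per cell cannot be told apart.

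Total counts on genes ran from 11661820 to 20890487 per library, and the 107 members took 3.47% to 5.48% of them. Granulosa markers were present in all libraries, with summed levels of 4006 to 4656 CPM in tumours, 965 to 2859 CPM in hyperplasia and 1655 to 3385 CPM in wild type (CPM, counts scaled to library size after TMM normalization, the trimmed mean of M-values). Luteal markers summed to 4028 to 4160 CPM in tumours, 8248 to 16130 CPM in hyperplasia and 12920 to 24600 CPM in wild type. Of these 8 luteal genes, 3 fell in tumours against wild type (edgeR quasi-likelihood test, Benjamini-Hochberg adjusted). Oocyte markers, of which 4 of 8 fell, summed to 1.51 to 4.87 CPM in tumours, 3.35 to 84.9 CPM in hyperplasia and 145 to 181.5 CPM in wild type. Macrophage markers, of which 1 of 5 fell, summed to 70.0 to 89.7 CPM, 153.8 to 206 CPM and 128.9 to 216.6 CPM, and white adipocyte markers, of which 1 of 4 tested fell, to 11.4 to 17.2 CPM, 13.6 to 31.2 CPM and 47.7 to 61.9 CPM in tumours, hyperplasia and wild type. The part of these marker differences in any result below was not tested.

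No respiratory chain gene passed the main test in any comparison. Of the 107 members, 102 had enough counts to be tested, together with 16213 genes in all. In tumours against wild type 0 of 102 members were called by edgeR at an adjusted p under 0.05, against 1.6% of all tested genes. In hyperplasia against wild type 0 were called, against 0.0% of all genes, and in tumours against hyperplasia 0 were called, against 0.185% of all genes. At an unadjusted p under 0.05, tumours against wild type gave 2 members that were higher (mt-Co1 and mt-Atp8; 8.41% of all genes were higher by this rule) and 2 that were lower (Cox4i2 and Ndufaf7; 11.7% of all genes). Hyperplasia against wild type gave 0 higher (1.41% of all genes) and 1 lower (Cox4i2; 2.12%). Tumours against hyperplasia gave 3 higher (mt-Co1, mt-Atp8 and Atp5g2; 4.71%) and 0 lower (9.39%). The DESeq2 Wald test, run as an alternative, called mt-Co1 in tumours against wild type (10.8% of all genes called), mt-Co1 and mt-Cytb in tumours against hyperplasia (5.03%), and 0 members in hyperplasia against wild type (0.117%). By each of these rules the members' share was at or below that of all genes.

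The highest log2 fold change of any member in tumours against wild type was that of mt-Co1, which encodes the catalytic subunit of complex IV. Its level was 19290, 24300 and 13870 CPM in tumours, 10370, 7974 and 11720 CPM in hyperplasia, and 9368, 9373 and 11310 CPM in wild type. All 3 tumours lay above all 6 other libraries, while hyperplasia and wild type overlapped. The log2 fold change was 0.94 ± 0.39 (SE) for tumours against wild type, with an adjusted p of 0.221 by edgeR and 0.0130 by DESeq2. Against hyperplasia it was 0.93 ± 0.39, with an adjusted p of 0.327 by edgeR and 0.0231 by DESeq2. RSEM gave non-whole counts for mt-Co1 in all 9 libraries, since it shares sequence with a pseudogene described below. Without wild-type library 1 and tumour library 2, which stand apart from the others, the log2 fold change was 0.65 against wild type and 0.70 against hyperplasia.

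The other mitochondrial genes for which no chromosome 1 copy was found gave smaller or less even differences. The level of mt-Cytb, the only mitochondrial subunit of complex III, was 4923, 5889 and 4147 CPM in tumours, 3477, 2755 and 3234 CPM in hyperplasia, and 3722, 3587 and 4027 CPM in wild type. On this scale the 3 groups did not overlap, with tumours highest and hyperplasia lowest. The log2 fold change of mt-Cytb was 0.66 ± 0.30 against hyperplasia (edgeR adjusted p = 0.36; DESeq2 adjusted p = 0.0355) and 0.40 ± 0.30 against wild type (edgeR adjusted p = 0.493). On deposited TPM the groups of mt-Cytb overlapped, at 5920 to 7745 TPM in tumours, 4894 to 6205 TPM in hyperplasia and 4322 to 7188 TPM in wild type, with log2 fold changes of 0.33 and 0.23. The short gene mt-Atp8, a subunit of the membrane part of ATP synthase, had 570, 683.5 and 283.8 CPM in tumours, 278.4, 255.3 and 252.7 CPM in hyperplasia, and 235.9, 230.5 and 387.3 CPM in wild type. Tumour libraries 1 and 2 were high, and tumour library 3 lay within the wild-type range. The log2 fold change of mt-Atp8 was 0.85 ± 0.35 against wild type and 0.97 ± 0.35 against hyperplasia (edgeR adjusted p = 0.217 and 0.271), and on deposited TPM, which divides by gene length, 0.40 in both comparisons. Among complex I subunits, mt-Nd5 had 3203, 3039 and 2378 CPM in tumours, 2183, 1589 and 1624 CPM in hyperplasia, and 1066, 2311 and 2499 CPM in wild type. Wild-type library 1 was the lowest of the 9, and the other wild-type libraries overlapped the tumours. For mt-Nd1, mt-Nd2 and mt-Nd6, wild-type library 1 was instead the highest of the 9 libraries, at 4141, 2680 and 970.5 CPM. In tumours against wild type the log2 fold change was 0.07 ± 0.34 for mt-Nd1, -0.32 ± 0.30 for mt-Nd2 and -0.12 ± 0.29 for mt-Nd6.

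The counts of the remaining mitochondrial genes cannot be read alone, because 7 of the 13 have a near-identical pseudogene, whole or partial, in a single block of chromosome 1 (chr1:24611535-24616197, minus strand, GRCm38). RSEM divides reads that fit several places among them, and these copies took 0.524% to 2.19% of all counts. Over all 9 libraries the copy held 78.2% of the joint counts for mt-Atp6, 72.4% for mt-Co3, 77.6% for mt-Nd3 and 66.8% for mt-Nd4l. For mt-Co2, the subunit that receives electrons from cytochrome c, the copy held 86.3% in tumour library 1 and 62.4% in tumour library 2 but 0.00% in tumour library 3, 1.27%, 0.36% and 0.44% in hyperplasia, and 0.00%, 0.05% and 13.4% in wild type. The copies of mt-Co2 (Gm28661), mt-Co3 (Gm28437), mt-Atp6 (Gm10925), mt-Nd4 (Gm28439) and mt-Nd4l (Gm10222) had no difference from the mitochondrial gene over their whole length. The copy of mt-Nd3 (Gm28438) differs at 1 of 345 bases, T3C, with positions counted from 1 at the 5′ end of the mitochondrial gene. The copy of mt-Co1 (Gm29216) is a fragment of 492 bases that differs at 6 bases, T1056A, C1057T, A1059G, A1060G, C1062A and A1066T, all close to its 5′ end. The sequences around these differences are shown because they hold every base that differs within the aligned stretches of these 2 pairs. Capitals mark the bases that differ. In GRCm38, mt-Nd3 lies at chrM:9459-9806 and mt-Co1 at chrM:5328-6872.
mt-Nd3: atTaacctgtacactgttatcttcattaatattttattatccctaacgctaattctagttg
Gm28438: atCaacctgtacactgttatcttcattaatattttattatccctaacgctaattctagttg
mt-Co1: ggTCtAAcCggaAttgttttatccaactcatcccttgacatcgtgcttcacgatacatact
Gm29216: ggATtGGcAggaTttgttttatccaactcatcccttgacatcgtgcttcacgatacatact

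**Figure D1:**
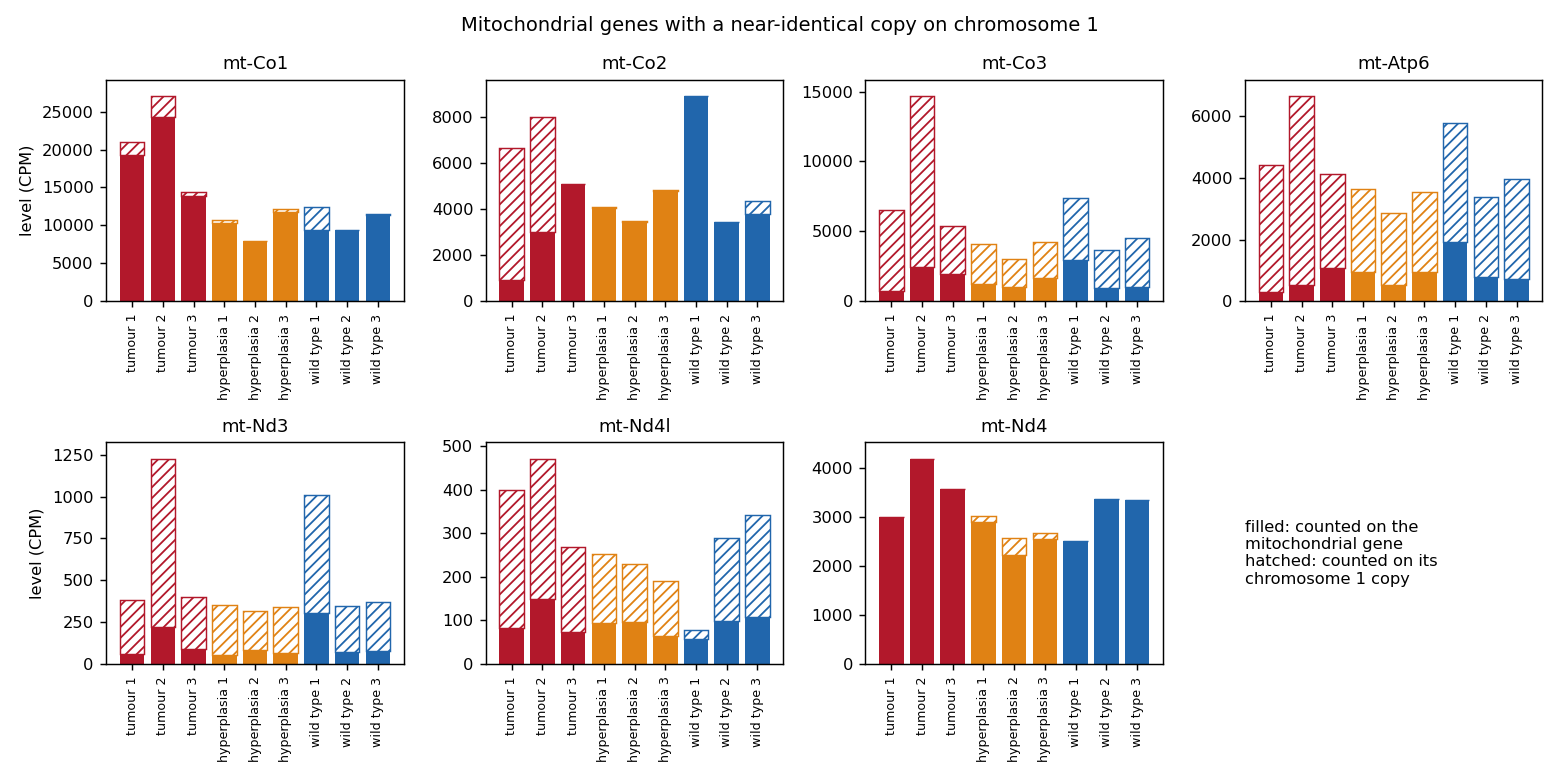
Level (CPM) of 7 mitochondrial genes in the 3 tumour, 3 hyperplasia and 3 wild-type libraries, filled for counts on the mitochondrial gene and hatched for counts on its chromosome 1 copy. For mt-Co2 the hatched share is large in tumour libraries 1 and 2 and near 0 in most others, and for mt-Co1 the whole bar is highest in the 3 tumours.

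With the counts of each copy added to its gene, mt-Co1 had 20970, 27040 and 14460 CPM in tumours, 10640, 7977 and 12100 CPM in hyperplasia, and 12420, 9389 and 11550 CPM in wild type. The tumours still lay above all other libraries, with log2 fold changes of 0.91 ± 0.39 against wild type and 1.02 ± 0.39 against hyperplasia (edgeR adjusted p = 0.241 and 0.296). The direction of mt-Co2 and mt-Atp6 in tumours against wild type depended on the copies. As deposited, mt-Co2 had 912, 3014 and 5110 CPM in tumours and 8909, 3448 and 3769 CPM in wild type, a log2 fold change of -0.84 ± 0.61. With the copy, mt-Co2 had 6652, 8018 and 5110 CPM in tumours and 8909, 3450 and 4355 CPM in wild type, a log2 fold change of 0.24 ± 0.42. For mt-Atp6, the proton channel subunit of ATP synthase, the log2 fold change was -0.83 as deposited and 0.21 with the copy. For mt-Co3, a further core subunit of complex IV, the joint level was 6532, 14670 and 5398 CPM in tumours, 4094, 3022 and 4259 CPM in hyperplasia, and 7351, 3625 and 4532 CPM in wild type. Its log2 fold change with the copy was 1.23 ± 0.47 in tumours against hyperplasia (edgeR adjusted p = 0.296) and 0.78 ± 0.47 against wild type (adjusted p = 0.4). The joint level of mt-Nd3 was 384 to 1226 CPM in tumours, 316 to 351.5 CPM in hyperplasia and 347 to 1008 CPM in wild type, with tumour library 2 and wild-type library 1 at the top. For mt-Nd4l it was 269 to 471 CPM in tumours, 191 to 251.5 CPM in hyperplasia and 77.2 to 341 CPM in wild type, with wild-type library 1 lowest. For mt-Nd4 it was 3003 to 4188 CPM, 2573 to 3020 CPM and 2514 to 3373 CPM in tumours, hyperplasia and wild type. The mt-Nd4 copy held 4.22%, 13.4% and 4.91% of the joint counts in hyperplasia, 0.0% in tumours and at most 0.04% in wild type.

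As deposited, the 13 mitochondrial genes had median log2 fold changes of 0.07 in tumours against wild type (8 of 13 above 0), -0.27 in hyperplasia against wild type (1 of 13) and 0.49 in tumours against hyperplasia (11 of 13). On deposited TPM with limma the medians were -0.07 (5 of 13 above 0), -0.10 (4 of 13) and 0.17 (7 of 13). With copies added, an alternative chosen after the data were seen, 13 of 13 mitochondrial genes had a log2 fold change above 0 in tumours against hyperplasia, with a median of 0.67, against a median of 0.05 over all tested genes. The 2 genes that made up the difference from 11 were mt-Co2, at -0.45 as deposited and 0.67 with its copy, and mt-Atp6, at -0.34 and 0.60. For 9 of the 13 every tumour lay above every hyperplasia library (mt-Co1, mt-Co2, mt-Co3, mt-Cytb, mt-Atp6, mt-Atp8, mt-Nd3, mt-Nd4l and mt-Nd5), and over all 102 tested members this held for 13, against 9.53% of all genes. As deposited, without copies, it held for 5 of the 13. On TPM with copies it held among the 13 only for mt-Co1, mt-Co3, mt-Atp6 and mt-Atp8. With copies and the length offset, 12 of 13 were above 0 in this comparison, with a median of 0.47 against 0.07 over all genes. Against wild type, with copies added, 11 of 13 had a value above 0 in tumours, with a median of 0.24, and 2 had groups that did not overlap (mt-Co1 and mt-Cytb, both higher; 10.7% of all genes). In hyperplasia against wild type 0 of 13 had a value above 0 and the median was -0.26. None of these genes passed the edgeR test in any comparison with copies added, and the 13 mRNAs come from shared precursors, so they are not independent of each other.

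The summed level of the 13 mitochondrial genes with copies was 56810, 77920 and 44560 CPM in tumours, 36780, 29060 and 36560 CPM in hyperplasia, and 50900, 34520 and 40210 CPM in wild type. All tumours were above all hyperplasia libraries, and tumours and wild type overlapped. The 6 genes for which no copy was found gave the same pattern, with 14460, 15640 and 11220 CPM in tumours, 10660, 8622 and 8635 CPM in hyperplasia, and 12820, 10660 and 11740 CPM in wild type. These 6 include mt-Atp8, which shares bases with mt-Atp6 and so with its copy. It lies between mt-Co2 and mt-Atp6, whose copies are neighbours in the chromosome 1 block. Only annotated pseudogenes were searched, so mt-Atp8 may have an unannotated copy there. On deposited TPM, without copies, the sums overlapped in all 3 groups, at 68610 to 90360 TPM in tumours, 61650 to 77450 TPM in hyperplasia and 69090 to 82170 TPM in wild type. These TPM sums differ from the CPM sums above both in scale and in leaving out the copies. On CPM without copies the tumours, at 36970 to 50480 CPM, still lay above hyperplasia, at 24000 to 30410 CPM, and overlapped wild type, at 28740 to 38860 CPM. A TPM sum with copies was not formed, so these sums do not show whether the tumour difference holds on TPM. Gene by gene, TPM with copies put all tumours above all other libraries only for mt-Co1 and mt-Co3. For mt-Co1 the tumours had 20460 to 29620 TPM, against 9950 to 19250 TPM in the others. For mt-Nd2 all tumours lay below wild type, at 1960 to 3090 TPM against 3455 to 3632 TPM.

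Along the mitochondrial genome, levels per length differed widely between genes. In TPM with copies added, the mean over the 9 libraries was highest for mt-Co1 (18190), mt-Co2 (16140), mt-Atp8 (16050), mt-Co3 (14070) and mt-Atp6 (12980). The value of mt-Atp8 is uncertain, because its 204 bases are close to the implied mean fragment length of 186 to 234 bases, and TPM divides by the small length that remains. It was lowest for mt-Nd5 (2041), mt-Nd2 (2948) and mt-Nd6 (2994), the only member on the other strand. The neighbours mt-Atp8 and mt-Atp6 are read from 1 mRNA in mammals and share 43 bases, so their reads cannot be separated within that stretch. The sequence of mt-Atp8 (chrM:7766-7969) is shown because it is the shortest member, at 204 bases, and its shared bases are in capitals.
mt-Atp8: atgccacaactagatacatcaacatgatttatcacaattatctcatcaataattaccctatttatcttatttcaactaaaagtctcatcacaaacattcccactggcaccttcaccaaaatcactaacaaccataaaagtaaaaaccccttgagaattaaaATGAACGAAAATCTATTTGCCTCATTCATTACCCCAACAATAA

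No nuclear subunit passed the edgeR test between groups, and 2 libraries stood apart from the rest. The summed level of the nuclear subunits was 8875, 15680 and 7734 CPM in tumours, 7827, 9267 and 8476 CPM in hyperplasia, and 17340, 8440 and 8394 CPM in wild type. Tumour library 2 and wild-type library 1 had about the same high level, and the other 7 libraries lay between 7734 and 9267 CPM. These 2 libraries were the highest of the 9 for 73 of the 78 tested nuclear subunits (93.6%). Wild-type library 1 exceeded the mean of the other wild-type libraries by a median factor of 2.44 over these genes, and tumour library 2 the mean of the other tumours by a median factor of 2.03.

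The same pattern held in each complex. Complex I nuclear subunits summed to 2292, 4217 and 2065 CPM in tumours, 2056, 2495 and 2330 CPM in hyperplasia, and 5257, 2194 and 2184 CPM in wild type. For complex IV the sums were 1272, 2720 and 1101 CPM in tumours, 1202, 1432 and 1314 CPM in hyperplasia, and 3433, 1284 and 1297 CPM in wild type. Complex III and complex V behaved alike, with 713 to 1541 CPM and 3235 to 6331 CPM in tumours, 718 to 851 CPM and 3206 to 3725 CPM in hyperplasia, and 781 to 1568 CPM and 3432 to 6126 CPM in wild type. Complex II, whose 4 subunits are longer (median 1376 bases), was the most even, at 741, 868.5 and 620 CPM in tumours, 645, 765 and 668 CPM in hyperplasia, and 959, 689 and 700.0 CPM in wild type. The groups overlapped in every complex.

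**Figure D2:**
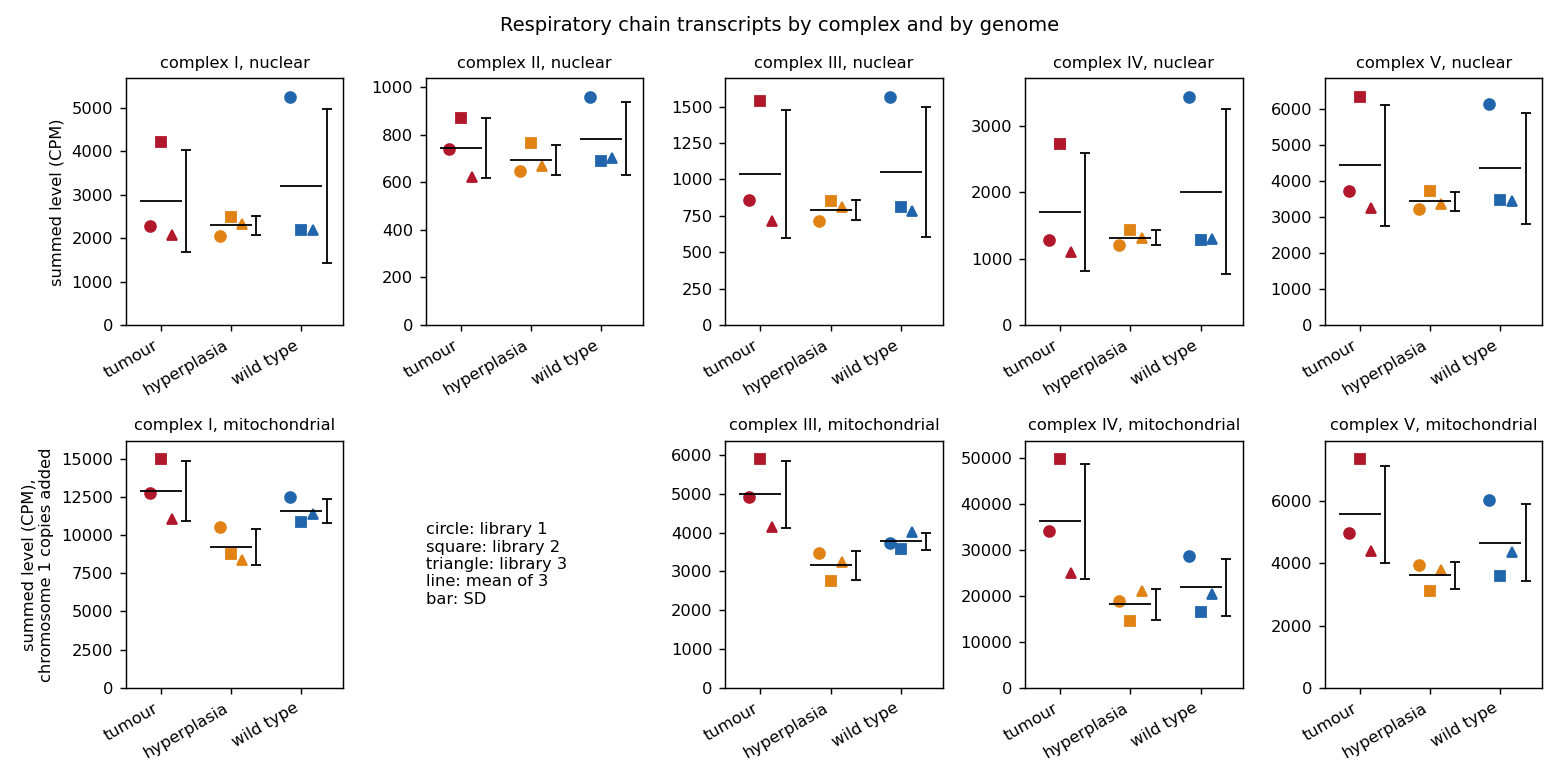
Summed level (CPM) of the subunits of each complex in tumours, hyperplasia and wild type, with 1 point per library, the mean as a line and the SD as a bar. In the upper row (nuclear subunits) tumour library 2 and wild-type library 1 stand above the rest, and in the lower row (mitochondrial genes with chromosome 1 copies added) the tumours lie above hyperplasia.

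The 2 high libraries were high in short genes of all kinds, and the nuclear subunits are short. The median length of the 78 tested subunits was 681 bases, against 2463 bases for all tested genes, and 75.6% of them were under 1000 bases, against 11.2% of all genes. For all genes under 500 bases, the median log2 deviation from the mean of the 9 libraries was 0.82 in tumour library 2 and 0.93 in wild-type library 1, and between -0.33 and -0.04 in the other 7. For genes of 4000 bases or more it was -0.36 and -0.61 in these 2 libraries. Among nuclear subunits the median deviation in wild-type library 1 was 1.37 for those under 500 bases, 1.04 from 500 to 1000 bases, 0.67 from 1000 to 2000 bases and 0.14 for the 3 longest. In tumour library 2 the median deviations were 0.69, 0.81, 0.49 and -0.03 in the same bins. From 500 to 1000 bases the subunits lay above the median of all genes of that length, which was 0.45 in tumour library 2 and 0.80 in wild-type library 1. Across the 78 subunits, which share libraries, Spearman's rho of length with this deviation was -0.60 in wild-type library 1 and -0.32 in tumour library 2, and between 0.01 and 0.42 in the others. Red blood cell markers were also highest in these libraries, with summed levels of 763 CPM in tumour library 2 and 1193 CPM in wild-type library 1, against 26.5 to 545.5 CPM in the others. These 5 markers are themselves short genes (median 671 bases), so blood content and gene length cannot be told apart in their values. The mean fragment length implied by the deposited lengths and effective lengths was 201 bases in tumour library 2 and 207 bases in wild-type library 1, within the range of 186 to 234 bases in the others. The part of RNA quality, blood content or library preparation in this pattern was not tested.

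**Figure D3:**
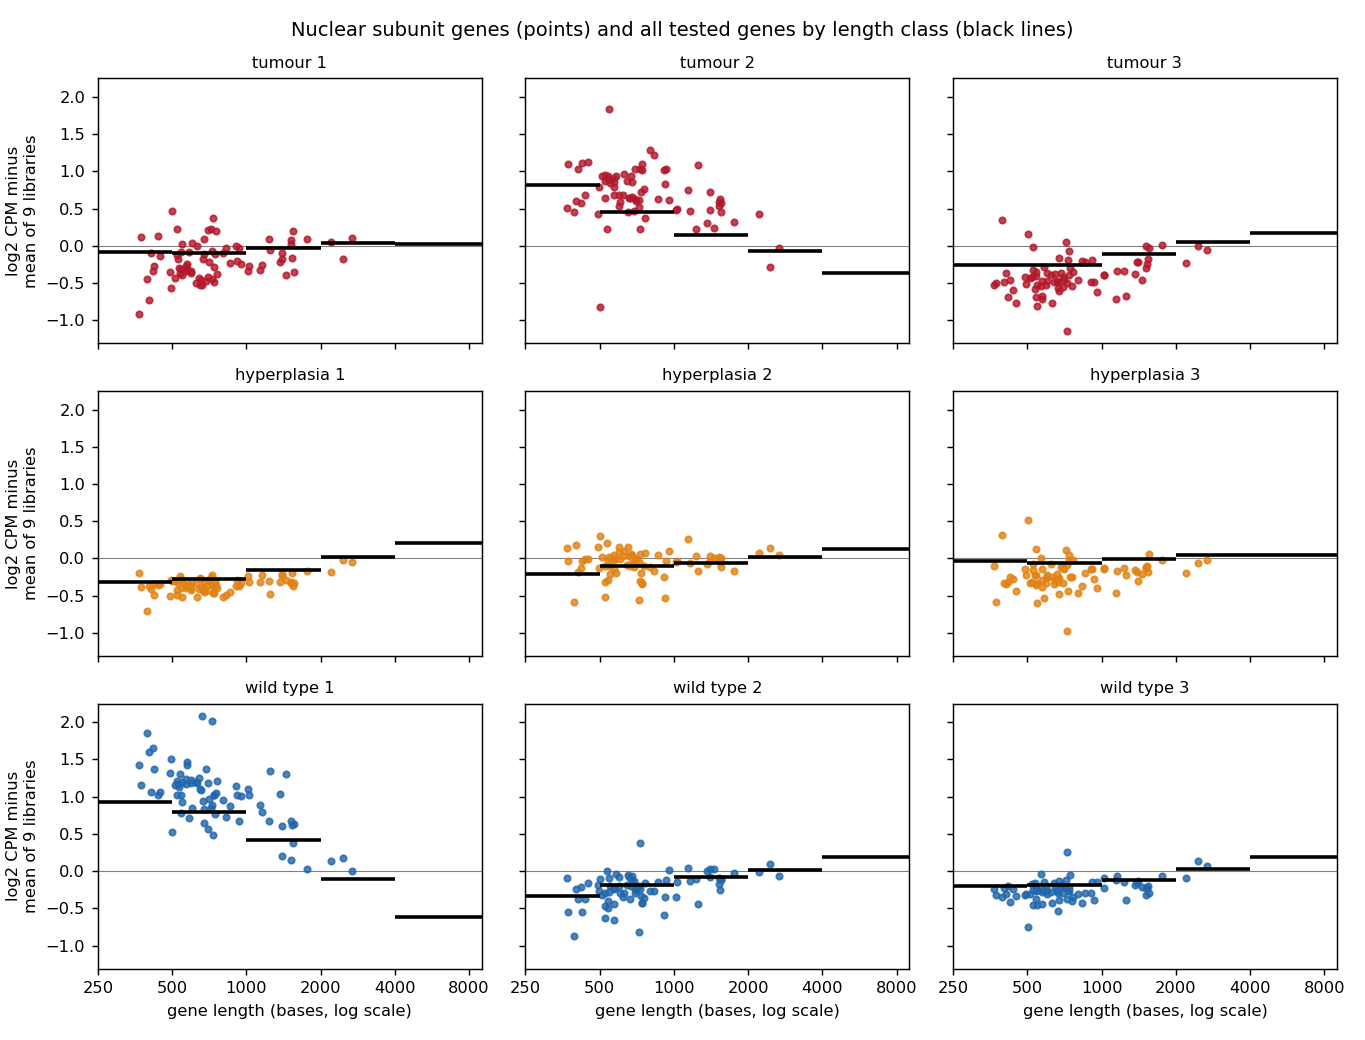
Log2 CPM of each tested nuclear subunit minus its mean over the 9 libraries, against gene length in bases on a log scale, in 1 panel per library, with the median of all tested genes per length class as black lines. In tumour library 2 and wild-type library 1 short subunits lie high and the 3 longest lie lower, with medians of -0.03 and 0.14, as the black lines fall with length.

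The fold changes of nuclear subunits moved with these libraries. The median log2 fold change of the 78 subunits was -0.13 in tumours against wild type (range -1.52 to 0.45), -0.52 in hyperplasia against wild type (-1.54 to 0.23) and 0.32 in tumours against hyperplasia (-0.18 to 1.05). Values above 0 were found for 25, 1 and 73 of the 78 genes. Over all 102 tested members the counts above 0 were 37, 3 and 90, that is 36.3%, 2.94% and 88.2%, against 50.9%, 49.7% and 54.0% of all genes. After an offset for gene length the medians were 0.00, -0.11 and 0.09, with 39, 7 and 52 of the 78 above 0. With this offset the medians of all genes were 0.05, -0.004 and 0.07. On deposited TPM, with limma on log2(TPM + 1), the medians of the subunits were -0.29, -0.24 and -0.07, with 72, 72 and 51 of the 78 below 0, on a scale on which the medians of all genes were -0.12, 0.13 and -0.23. The sign in tumours against hyperplasia thus depended on the scale. Set beside all genes, the subunit median was higher on both scales, at 0.32 against 0.05 by edgeR and -0.07 against -0.23 on TPM. Without wild-type library 1 and tumour library 2 the edgeR medians of the subunits were -0.06, 0.03 and -0.13, so that the last 2 changed sign. As deposited, groups that did not overlap were no more frequent among the 102 members than among all genes. In tumours against wild type 2 members were higher (10.6% of all genes) and 4 lower (Atp5s, Cox4i2, Ndufaf7 and Ndufs1; 13.4%). In hyperplasia against wild type 0 were higher (4.63%) and 5 lower (Atp5g2, Cox4i2, Ndufa12, mt-Cytb and mt-Nd2; 5.18%). In tumours against hyperplasia 9 were higher (Atp5g2, Ndufa7, Ndufa10, Uqcrc2 and 5 mitochondrial genes; 9.54%) and 0 lower (12.4%).

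**Figure D4:**
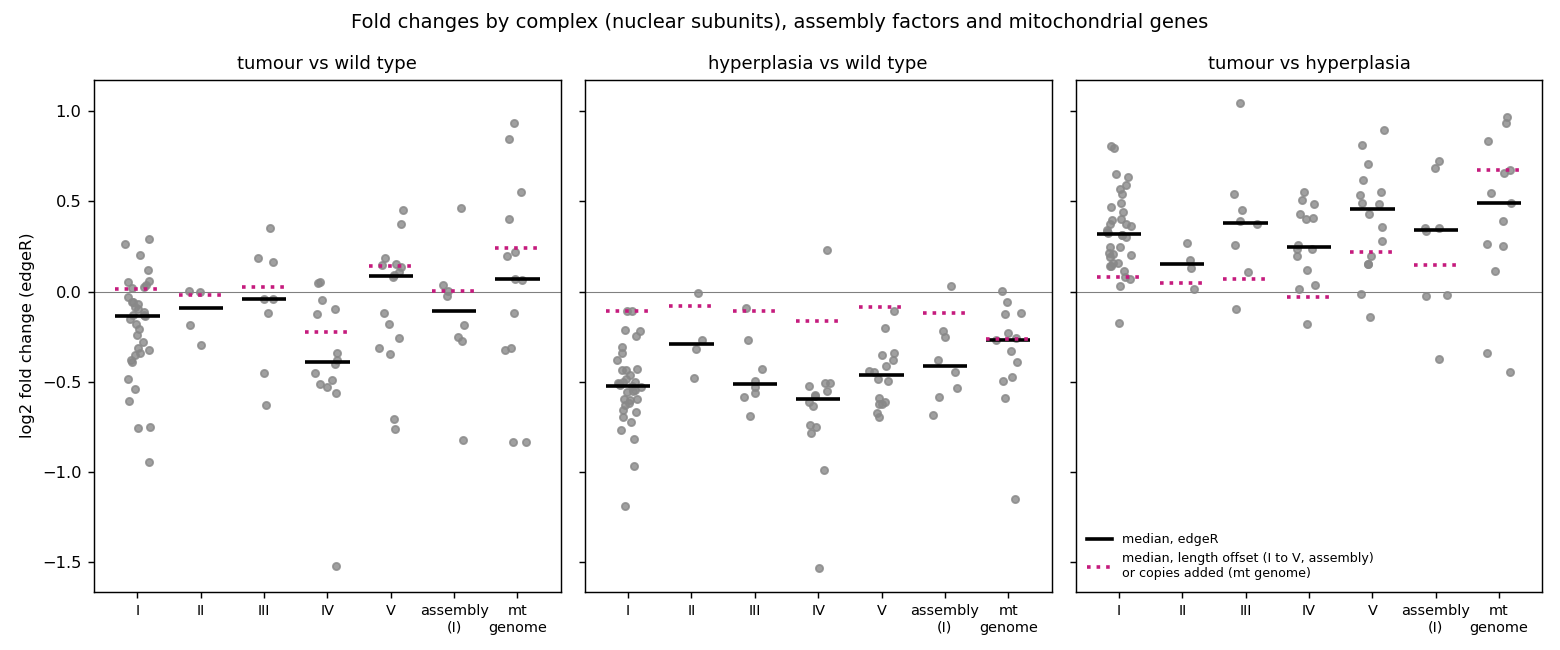
Log2 fold changes (edgeR) of nuclear subunits by complex, of complex I assembly factors and of mitochondrial genes in the 3 comparisons, with 1 point per gene, black lines for medians and dotted lines for medians after the length offset or, for mitochondrial genes, with copies added. The dotted medians of nuclear subunits lie nearer 0 than the black ones in hyperplasia against wild type, and that of the mitochondrial genes is highest in tumours against hyperplasia.

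Among the nuclear subunits of complex I, the small accessory subunits Ndufc2 and Ndufa1 gave the lowest log2 fold changes in hyperplasia against wild type. Ndufc2 had 47.6, 107.4 and 49.3 CPM in tumours, 52.8, 64.0 and 55.5 CPM in hyperplasia, and 292.7, 53.1 and 47.3 CPM in wild type. Wild-type library 1 was highest and tumour library 2 next. The log2 fold change of -0.94 ± 0.66 in tumours and -1.19 ± 0.67 in hyperplasia turned positive without that library, at 0.44 and 0.20. Ndufa1 repeated this, with 23.8 to 57.3 CPM in tumours, 30.4 to 35.1 CPM in hyperplasia, and 121.4, 33.1 and 33.3 CPM in wild type. The long core subunit Ndufs1 (2456 bases), which carries iron-sulphur clusters, had 99.7, 93.0 and 113.0 CPM in tumours, 111.4, 124.8 and 108.8 CPM in hyperplasia, and 127.3, 120.4 and 124.0 CPM in wild type. Tumours lay below wild type in every library, by a log2 fold change of -0.28 ± 0.17 (edgeR adjusted p = 0.404), and RSEM gave non-whole counts for it in all 9 libraries. On deposited TPM these groups of Ndufs1 overlapped, at 39.5 to 79.0 TPM in tumours and 68.2 to 91.0 TPM in wild type. Ndufb4 shares its sequence with the copy Ndufb4c, which held 64.6% of their joint counts.

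Among the 8 assembly factors of complex I, Ndufaf7, a methyltransferase that acts on a core subunit, had 15.9, 18.3 and 17.1 CPM in tumours, 17.7, 27.8 and 21.1 CPM in hyperplasia, and 43.3, 24.4 and 22.9 CPM in wild type. Tumours did not overlap wild type. The log2 fold change was -0.82 ± 0.30, with an adjusted p of 0.171 by edgeR, and tumours and hyperplasia overlapped. Ndufaf5 had 9.99, 30.5 and 9.06 CPM in tumours, 9.73, 11.9 and 9.14 CPM in hyperplasia, and 17.3, 9.82 and 8.61 CPM in wild type, so that its log2 fold change of 0.47 ± 0.49 in tumours rested on tumour library 2. Ndufaf4 had a log2 fold change of 0.00 ± 0.30 in tumours and 0.03 ± 0.30 in hyperplasia, both against wild type. Per length, the lowest tested members were Ndufaf6, Cox4i2, Ndufa4l2 and Ndufaf4, with means of 8.39, 9.69, 11.7 and 15.8 TPM.

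In complex II, Sdha, the flavoprotein that oxidises succinate (2673 bases), had 407.8, 371.6 and 362.5 CPM in tumours, 366.4, 392.5 and 372.1 CPM in hyperplasia, and 378.2, 362.1 and 399.1 CPM in wild type. The groups overlapped fully, and the log2 fold changes were 0.00 ± 0.19, -0.01 ± 0.19 and 0.01 ± 0.19 in the 3 comparisons. On deposited TPM Sdha was less even, from 142.5 to 241 TPM in tumours, 243 to 262 TPM in hyperplasia and 171.5 to 263 TPM in wild type, with tumour library 2 and wild-type library 1 lowest. Sdhb, the iron-sulphur subunit (1140 bases), had 88.5, 185.1 and 67.5 CPM in tumours, 88.9, 132.2 and 80.3 CPM in hyperplasia, and 204.6, 113.3 and 101.3 CPM in wild type. Sdhb was thus highest in the 2 libraries that were high in short genes, and Sdha was not. On deposited TPM Sdhb had 187.0 TPM in tumour library 2, against 139.7 and 118.5 TPM in the other tumours. Sdhd, of like length (1231 bases), had 111.8 TPM there, against 160.0 and 131.7 TPM. Sdhc (1521 bases) had 143.5 TPM there, against 169.3 and 129.2 TPM. The part of length in these values was not tested.

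In complex III a short and a longer subunit differed likewise. Uqcrq, a small subunit of 547 bases, had 66.9, 315.1 and 50.5 CPM in tumours, 61.7, 89.7 and 58.0 CPM in hyperplasia, and 201.4, 72.8 and 64.1 CPM in wild type. Its log2 fold change of 1.05 ± 0.70 in tumours against hyperplasia, the highest of any member in the counts as deposited, became -0.25 without tumour library 2. The core subunit Uqcrc2 (1758 bases) had 182.0, 212.8 and 172.0 CPM in tumours, 152.5, 152.7 and 168.1 CPM in hyperplasia, and 174.2, 168.1 and 162.8 CPM in wild type. Tumours lay above hyperplasia in every library, by a log2 fold change of 0.26 ± 0.18 (edgeR adjusted p = 0.55). On deposited TPM these groups of Uqcrc2 overlapped, at 130.7 to 186.1 TPM in tumours and 162.0 to 169.0 TPM in hyperplasia.

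Complex IV has subunits with tissue isoforms, and the general forms dominated. Cox4i1, the general form of subunit 4, had 288.6, 752.3 and 267.1 CPM in tumours, 267.2, 279.2 and 344.9 CPM in hyperplasia, and 713.5, 261.2 and 293.3 CPM in wild type. Cox4i2, the form known from lung and induced by low oxygen, had 2.12, 3.41 and 1.26 CPM in tumours, 2.25, 3.04 and 1.44 CPM in hyperplasia, and 12.1, 3.82 and 3.502 CPM in wild type. All 6 lesion libraries lay below all 3 wild-type libraries. The log2 fold change of Cox4i2 was -1.52 ± 0.61 in tumours and -1.54 ± 0.61 in hyperplasia (edgeR adjusted p = 0.208 and 0.999), from 566 counts in all 9 libraries. Without wild-type library 1 and tumour library 2 it was -1.14 in tumours and -0.72 in hyperplasia. Both isoforms are of nearly the same length (727 and 739 bases), and in TPM Cox4i2 stood at 0.755%, 0.465% and 0.479% of Cox4i1 in tumours, 0.859%, 1.11% and 0.426% in hyperplasia, and 1.73%, 1.5% and 1.22% in wild type. This ratio was lower in all lesion libraries than in all wild-type libraries; it was formed after the values were seen and was not tested. Smooth muscle markers summed to 327 to 951 CPM in tumours, 2437 to 5743 CPM in hyperplasia and 1073 to 2301 CPM in wild type, so that they were higher in every hyperplasia library than in wild type; their part in the Cox4i2 values was not tested.

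The other isoforms gave low or even values. Cox7a1, the heart and muscle form of subunit 7a, had 2.58, 4.87 and 4.53 CPM in tumours, 2.14, 2.32 and 4.40 CPM in hyperplasia, and 13.01, 1.88 and 2.76 CPM in wild type. Its log2 fold change of -0.99 ± 0.71 in hyperplasia became 0.35 without wild-type library 1. The general form Cox7a2 had 55.6 to 141.9 CPM in tumours, 58.3 to 73.0 CPM in hyperplasia and 68.0 to 185.0 CPM in wild type. Cox7a2l, which helps join complexes III and IV, had 191 to 364 CPM, 140.0 to 295.6 CPM and 119 to 378 CPM in tumours, hyperplasia and wild type. Cox6b2, the form known from testis, had 10.4, 4.19 and 8.39 CPM in tumours, 6.04, 9.26 and 10.7 CPM in hyperplasia, and 10.8, 6.94 and 4.42 CPM in wild type, the highest value among members in hyperplasia against wild type (log2 fold change 0.23 ± 0.45). The testis form Cox8c had 0 counts in every library, Cox7b2 had 4 in all, the muscle form Cox6a2 had 22 and Cox8b had 52, and these were not tested. Of 4 spermatid markers, Prm1 and Tnp1 were also at 0 counts in every library. All 4 together summed to 0.050 to 0.059 CPM in wild type and 0.0 CPM in every lesion library. Cox6a1, Cox6b1, Cox7b and Cox8a had levels between 44.0 and 430 CPM, with wild-type library 1 highest for each. Ndufa4, now counted with complex IV, had 86.5 to 174.8 CPM in tumours, 89.5 to 134.3 CPM in hyperplasia and 97.7 to 275.0 CPM in wild type. Its paralogue Ndufa4l2, which is induced by low oxygen, had 3.70, 5.55 and 2.601 CPM in tumours, 3.80, 8.18 and 2.68 CPM in hyperplasia, and 15.1, 5.12 and 4.59 CPM in wild type, a log2 fold change of -1.06 ± 0.61 in tumours against wild type (edgeR adjusted p = 0.369) and -0.30 ± 0.60 against hyperplasia.

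**Figure D5:**
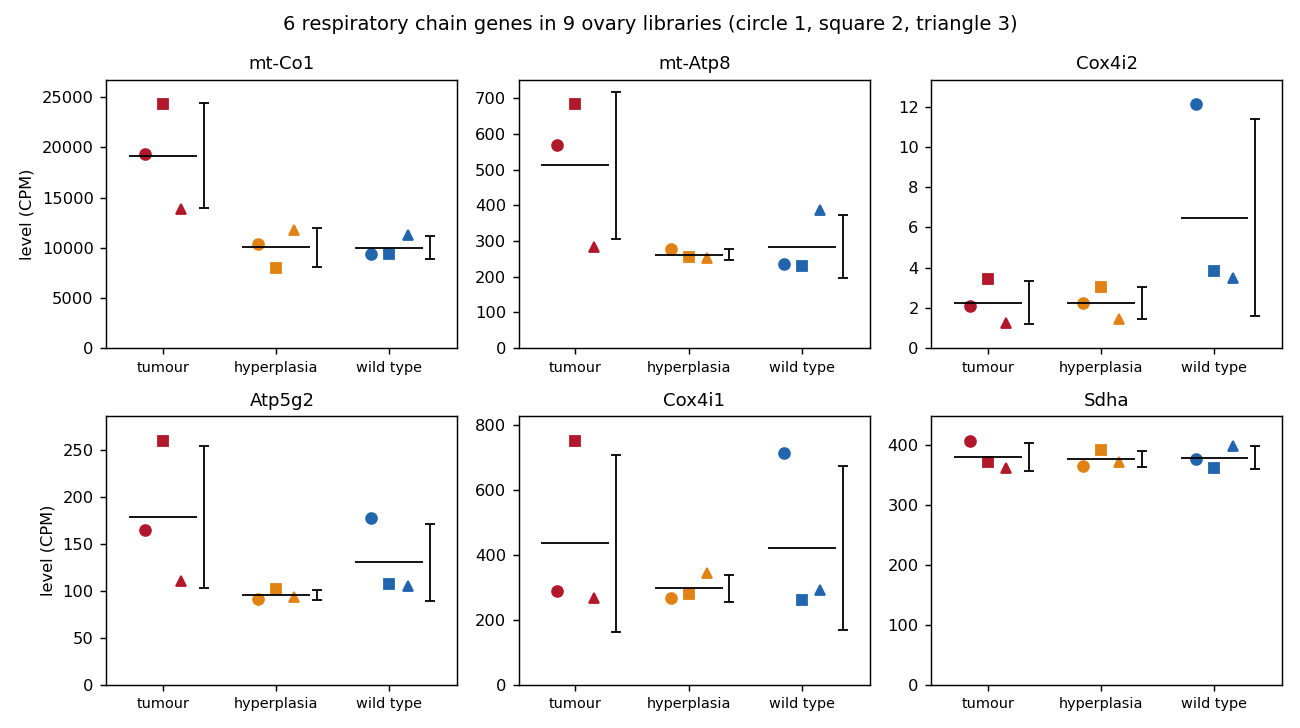
Level (CPM) of 6 members in tumours, hyperplasia and wild type, with 1 point per library, the mean as a line and the SD as a bar. For mt-Co1 the 3 tumours lie above all others, for Cox4i2 the 6 lesion libraries lie below wild type, and Sdha lies between 362 and 408 CPM.

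In complex V, the 3 genes Atp5g1, Atp5g2 and Atp5g3 encode the same mature c-ring protein with different targeting peptides. Atp5g2 had 165.0, 260.3 and 110.9 CPM in tumours, 91.8, 102.5 and 93.5 CPM in hyperplasia, and 178.2, 107.9 and 105.9 CPM in wild type. Every tumour lay above every hyperplasia library, by a log2 fold change of 0.90 ± 0.33 (edgeR adjusted p = 0.28), and every hyperplasia library lay below wild type (-0.45 ± 0.33, adjusted p = 0.999). With its copy Gm10175, which held 19.8% of the joint counts, the value against hyperplasia was 0.87, and without wild-type library 1 and tumour library 2 it was 0.50. Atp5g1 had 71.9 to 127.1 CPM in tumours, 58.6 to 77.3 CPM in hyperplasia and 61.2 to 126.2 CPM in wild type. Atp5g3 had 435.5 to 608.3 CPM, 286.4 to 458.7 CPM and 240.0 to 757.7 CPM in tumours, hyperplasia and wild type. Per length, Atp5b, the catalytic beta subunit, and Atp5g3 were the most abundant nuclear members, with means of 1285 and 1240 TPM. Atp5s, an associated coupling factor, had 9.13, 5.94 and 8.73 CPM in tumours, 8.98, 8.25 and 11.9 CPM in hyperplasia, and 16.5, 11.1 and 10.7 CPM in wild type, with a log2 fold change of -0.68 ± 0.31 in tumours against wild type (edgeR adjusted p = 0.265) and -0.29 ± 0.31 against hyperplasia. A second gene identifier with the symbol Atp5o had 0 counts in every library.

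Set against each other on CPM, both genomes had their highest sum in tumour library 2 among tumours and in wild-type library 1 among wild-type libraries. On deposited TPM, without copies, this held for the nuclear subunits only, at 27070 and 38270 TPM. The mitochondrial TPM sums of these libraries were instead the lowest of their groups, at 68610 and 69090 TPM. The mitochondrial sums of these 2 libraries were 50480 and 38860 CPM as deposited, and 77920 and 50900 CPM with copies added. The ratio of summed mitochondrial to summed nuclear subunit levels, with copies added, was 6.32, 4.91 and 5.70 in tumours, 4.65, 3.11 and 4.27 in hyperplasia, and 2.90, 4.05 and 4.74 in wild type. The 3 tumours lay above all other libraries, with the nearest 2 values at 4.91 in tumours and 4.74 in wild type. As deposited, without copies, the ratio was 4.38, 3.22 and 4.78 in tumours, 3.88, 2.59 and 3.59 in hyperplasia, and 2.24, 3.40 and 3.82 in wild type, and the groups overlapped. The denominator is the nuclear sum that was high in tumour library 2 and wild-type library 1, which had the lowest ratio of their groups.

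The promoters of the nuclear members were searched for motifs known from genes of this pathway. RefSeq promoters (GRCm38.p6, 250 bases before to 50 after the start) were found for 74 nuclear members by gene identifier or symbol. The core GCGCATG of the NRF1 site was in 15 of them (20.3%) and in 4.41% of 27025 genes. The ETS motif CCGGAAG was in 18 (24.3%) and in 9.93% of all genes, and the YY1 motif ATGGCGG in 12 (16.2%) and in 4.69% of all genes. The 27025 genes are all those with such a promoter and were not limited to the 16213 genes tested here, so the 2 sets are unlike. Both strands were searched, and no motif is part of another. These shares are a description of the letters and say nothing of binding. The promoters of Atp5g2 (chr15:102670998-102671297, minus strand) and Cox6a1 (chr5:115348909-115349208, minus strand) are shown as 2 of the described members with an NRF1 motif, which begins at -42 in Atp5g2 and at -162 in Cox6a1 relative to the start and occurs there on both strands. Capitals mark motifs, which in Cox6a1 include an ETS motif on the opposite strand, found as CTTCCGG, and the sequences are written 5′ to 3′ on the gene's strand.
Atp5g2: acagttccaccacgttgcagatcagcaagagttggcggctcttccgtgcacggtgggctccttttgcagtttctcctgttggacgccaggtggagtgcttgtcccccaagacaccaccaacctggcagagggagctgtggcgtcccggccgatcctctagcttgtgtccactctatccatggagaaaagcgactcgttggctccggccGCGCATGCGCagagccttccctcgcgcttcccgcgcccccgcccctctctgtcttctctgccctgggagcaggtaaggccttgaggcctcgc
Cox6a1: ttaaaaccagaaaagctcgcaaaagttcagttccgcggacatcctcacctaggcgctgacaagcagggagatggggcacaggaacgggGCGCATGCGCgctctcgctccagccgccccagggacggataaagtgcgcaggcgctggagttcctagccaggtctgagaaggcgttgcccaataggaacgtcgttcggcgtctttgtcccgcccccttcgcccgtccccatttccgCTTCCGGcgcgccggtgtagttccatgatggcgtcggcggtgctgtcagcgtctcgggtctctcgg

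Other genes of energy supply gave few calls. Of 32 further assembly factors with cytochrome c, 17 regulators of the mitochondrial genome, 16 genes of the citrate cycle and pyruvate dehydrogenase, 18 of glycolysis and glucose transport, 78 mitochondrial ribosomal proteins and 76 tested cytosolic ribosomal proteins, 0 were called by edgeR in any comparison. Of all tested genes, edgeR called 1.6% in tumours against wild type, 0.0% in hyperplasia against wild type and 0.185% in tumours against hyperplasia. The DESeq2 Wald test called Hk1, Ldhb and Pfkp in tumours against wild type (10.8% of all genes), Pfkp in tumours against hyperplasia (5.03%), and 0 in hyperplasia against wild type (0.117%). At an unadjusted p under 0.05, tumours against wild type gave 1 higher and 1 lower, 1 and 0, 0 and 0, 2 and 1, 0 and 0, and 0 and 0 in these lists. Of all genes 8.41% were higher and 11.7% lower by this rule. Their median log2 fold changes in that comparison were -0.04, -0.04, 0.06, -0.02, -0.06 and 0.36, against 0.01 for all genes. The log2 fold changes of largest size in each list were those of Sco2 (0.90 ± 0.37), a copper chaperone of complex IV, and Cox20 (-1.03 ± 0.41), Pprc1 (0.65 ± 0.33) and Nrf1 (0.56 ± 0.25), Suclg1 (-0.59 ± 0.35) and Dld (-0.50 ± 0.22), Pfkp (-1.17 ± 0.33) and Ldhb (1.15 ± 0.38), Mrpl33 (-1.14 ± 0.55) and Mrps14 (-0.59 ± 0.39), and Rpl26 (1.13 ± 0.60) and Rplp1 (0.89 ± 0.58). The smallest edgeR adjusted p among them was 0.1, for Pfkp, a phosphofructokinase of glycolysis. The short cytosolic ribosomal protein genes (median 651 bases) summed to 51040, 116200 and 43010 CPM in tumours, 39030, 39280 and 48930 CPM in hyperplasia, and 82350, 36820 and 41800 CPM in wild type, highest in the same 2 libraries as the nuclear subunits.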

How the data were processed

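Ovary RNA was extracted with Trizol and sequenced from stranded TruSeq mRNA libraries, per the labels' protocols. The submitters' processing notes name STAR 2.7.1a, Picard 2.8.1, RSEM 1.3.1 and GRCm38. Each gene table the authors deposited holds RSEM expected counts, TPM, FPKM and 2 lengths, per the file headers. The strand setting and annotation release are not given in the sources used here; all 55536 identifiers are in GENCODE M21. Of the deposited expected counts above 0, 25.6% are not whole; they were rounded. Deposited TPM served for levels per length and 1 alternative, and the deposited FPKM was not used. RSEM's sharing of reads among near-identical copies bears on the mitochondrial counts.

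The test was edgeR 4.0.16 (R 4.3.3) on TMM-scaled counts, with filterByExpr (count minimum 10, total minimum 15), 1 quasi-likelihood fit over 9 libraries in 3 groups, and Benjamini-Hochberg adjustment over 16213 genes at 0.05. The common biological coefficient of variation was 0.432. Copies were pseudogene transcripts matching a member at 98% identity or more over 80% or more of their length (BLAST+ 2.17.0). Alternatives were DESeq2 1.42.0 size factors and Wald test, limma-voom and limma on log2(TPM + 1) (limma 3.58.1), no filter, only the groups compared, a term for the shared title stem, a lowess offset on gene length, library sizes without the mitochondrial genome, and leaving out each library; adding copies, the offset on copies added, and leaving out 2 libraries were chosen after seeing the data.

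Named genes are any member called and, per comparison, the 5 highest and 5 lowest fold changes among members with a mean of at least 1 CPM, all mitochondrial genes, isoform sets, the 3 highest and 3 lowest members in TPM, and the 2 of largest fold change per pathway list. Ndufs1, Ndufb4, Uqcrc2, Sdhb, Hk1 and the further genes of non-overlapping groups were named after their values were seen. Members and lists were chosen with earlier results of these data known. Libraries of a group differed far beyond sampling noise (chi-square per degree of freedom of at least 41.2), so each was counted once.
Promoter motifs were chosen after seeing the data; longer forms of the NRF1 and YY1 motifs were searched first and replaced by the shorter cores given.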

Additional observations from a re-analysis of the deposited data

How the results depend on the processing

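No respiratory chain gene was called under any alternative but the DESeq2 Wald test, which called 1 in tumours against wild type (mt-Co1, 0.94, adjusted p = 0.013) and 2 in tumours against hyperplasia (mt-Co1, 0.94, adjusted p = 0.0231; mt-Cytb, 0.66, adjusted p = 0.0355); over all alternatives the adjusted p of mt-Co1 ran from 0.013 to 0.452 and from 0.0231 to 0.728, and its log2 fold change stayed above 0. No member was called when any single library was left out. The median log2 fold change of nuclear subunits then ran from -0.60 to 0.38 in tumours against wild type, from -0.75 to 0.034 in hyperplasia against wild type and from -0.11 to 0.52 in tumours against hyperplasia, and that of mitochondrial genes from -0.11 to 0.33, from -0.41 to -0.16 and from 0.22 to 0.59. Without wild-type library 1 and tumour library 2 the median of nuclear subunits in hyperplasia against wild type was 0.028, and that of mitochondrial genes in tumours against hyperplasia 0.20; with limma on log2(TPM + 1) that of mitochondrial genes was 0.17, on a scale on which the median of all genes was -0.23. Apart from the 0.034 above, the other medians moved by less than the spread between libraries (pooled SD 0.54 for nuclear and 0.29 for mitochondrial genes).

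Signs turned with the copies added for mt-Co2 (0.24; 0.43 with the length offset too) and mt-Atp6 (0.21; 0.29) in tumours against wild type, and in tumours against hyperplasia for mt-Co2 (-0.45 as deposited, 0.67 with copies) and mt-Atp6 (-0.34, 0.60). Over single libraries left out, Ndufc2 ran from -1.43 to 0.44 and Mrps14 from -0.85 to 0.051 in tumours against wild type, and Ndufc2 from -1.59 to 0.20 and Cox7a1 from -1.41 to 0.35 in hyperplasia against wild type, each positive without wild-type library 1. Uqcrq in tumours against hyperplasia ran from -0.25, without tumour library 2, to 1.45. Without both libraries Ndufc2 (0.19) and Cox7a1 (0.35) in hyperplasia and Uqcrq (-0.27) had the same turned signs. The DESeq2 Wald test also called Pfkp (-1.17, adjusted p = 0.0225) and Ldhb (1.15, adjusted p = 0.0397) in tumours against wild type. Beyond the effect of the libraries left out and the counts added, the cause was not tested. No paired analysis was possible because the labels give no replicate numbers; the term for the shared title stem changed no call.

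In counts simulated for tumours against wild type over 16213 genes 93% of 2-fold and 98% of 4-fold changes were called at a biological coefficient of variation of 0.1, and 0% and 33% at 0.43. Depth was not varied.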
